A study of Homo sapiens with 8 samples.

Results

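The miR-30 family was described in INA-6 cells, an established human multiple myeloma (MM) cell line that grows in the presence of IL-6, after inhibition of the histone methyltransferase EZH2. Its 8 members on the array were chosen by name, as hsa-miR-30a-5p, hsa-miR-30b-5p, hsa-miR-30c-5p, hsa-miR-30d-5p, hsa-miR-30e-5p, hsa-miR-30a-3p, hsa-miR-30d-3p and hsa-miR-30e-3p, out of 2549 human miRNAs, and are written without the species prefix below. The study asked which mature miRNAs change when EZH2 is inhibited. In the 4 control samples the cells received DMSO, the solvent, and in the other 4 they received 1 μM of UNC1999, a small-molecule inhibitor of EZH2. Treatment lasted 120 h, and medium and reagents were renewed at 72 h. The sample titles name DMSO as the control, whereas the treatment protocol of the labels names the inactive compound UNC2400, and the samples were taken as DMSO controls here. All samples were of the same cell line, and each was hybridized to 1 single-colour array.

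A miRNA gene is transcribed into a hairpin from which the 5p and the 3p arm can each be cut out as a mature miRNA of its own, and the seed, bases 2 to 8 from the 5′ end, guides it to its targets. The 5p arms of the miR-30 genes carry the same seed, so that their predicted targets largely coincide. In B cells miR-30 is known to repress PRDM1, which encodes BLIMP-1, the transcription factor that drives plasma cell differentiation.

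The mature sequences are shown because the members differ by few bases and the arms of one hairpin carry different seeds. They are those of RefSeq (GRCh38.p14), which lists 5 of the 8 members in the table used here, and capitals mark the seed. The first 3 sequences are 5p arms and share the seed GUAAACA, which no other mature sequence among the 2370 of that table carries. The next 2 are 3p arms with the seed UUUCAGU. The last, which is not a member, is the 3p arm of the gene MIR30C1 and carries a further seed.
miR-30a-5p: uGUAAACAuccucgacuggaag
miR-30c-5p: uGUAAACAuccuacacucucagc
miR-30e-5p: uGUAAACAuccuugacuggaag
miR-30a-3p: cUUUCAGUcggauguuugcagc
miR-30e-3p: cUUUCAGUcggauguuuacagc
miR-30c-1-3p: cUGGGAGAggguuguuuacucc

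Counted from 1 at the 5′ end, miR-30e-5p differs from miR-30a-5p by the single substitution U13C, and miR-30e-3p from miR-30a-3p by A18G. miR-30e-5p shares its first 12 bases with miR-30c-5p. In GRCh38.p14 miR-30e-5p lies at chr1:40754371-40754392 and miR-30e-3p at chr1:40754413-40754434, both on the plus strand. MIR30C1 follows MIR30E after 2837 bases and gives miR-30c-5p at chr1:40757300-40757322 and miR-30c-1-3p at chr1:40757339-40757360. Both genes lie within the span of NFYC, a protein-coding gene, and whether in its exons or introns was not determined here. The same miR-30c-5p is also encoded by MIR30C2 on the minus strand at chr6:71377003-71377025, and its signal cannot be assigned to one of the genes. MIR30A, on the same strand, holds miR-30a-5p at chr6:71403595-71403616 and miR-30a-3p at chr6:71403554-71403575. MIR30B and MIR30D lie 4268 bases apart on chromosome 8 within the span of the protein-coding gene ZFAT.

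Of the 2549 human miRNAs, between 369 and 484 were detected on a DMSO array and between 474 and 500 on a UNC1999 array. The signal of a miRNA is the sum of its probes, scaled by the 75th percentile of the 346 miRNAs detected on all arrays and given as log2. Before scaling that percentile was 419 ± 119 on the DMSO arrays and 664 ± 88.3 on the UNC1999 arrays (SD, n = 4 each, exact permutation test, two-sided, p = 0.0571), so that a change below compares a member with the remaining miRNAs on its array. A miRNA was tested where all 4 arrays of at least 1 group detected it, which held for 456. It was called at a limma adjusted p of at most 0.05 with a fold change of at least 1.2. Within each group the arrays were alike in pairs, DMSO replicates 1 and 4 and replicates 2 and 3, and UNC1999 replicates 1 and 3 and replicates 2 and 4. The root mean square difference to the nearest array of the group was between 0.127 and 0.199 log2 units, against at least 0.303 to the next. The sample titles name the replicates of each group as biological replicates, and the paper describes its array heatmap as showing 4 independent biological experiments. Whether alike arrays held separate cultures was not settled by their values. The called miRNAs and the ratios are therefore also given with each alike pair averaged and counted as 1 sample. If alike arrays did not hold separate cultures, the p-values measure technical spread. By their deviations from the group mean, DMSO replicates 1 and 4 went with UNC1999 replicates 1 and 3, and the remaining pairs with each other. These sets were also fitted as a block, with values given in the last section. Of the markers of blood cells, miR-142-3p, miR-150-5p and miR-181a-5p were detected on all arrays and miR-155-5p on 2. miR-142-3p and miR-150-5p were called lower, at -0.52 and -0.56 on the log2 scale (limma adjusted p = 0.0091 and 0.0010), and miR-181a-5p was not called. Of 14 markers of other cell types 13 were detected on no array, while miR-223-3p, a myeloid marker, was detected on all and rose by 1.18 on the log2 scale (limma adjusted p = 5.7e-04). The part of these markers in the results was not tested.

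Most of the detected members were 5p arms, and relative to the other miRNAs of an array 4 members were lower after UNC1999. Detected on at least 1 array were 5 of the 8 members, of which miR-30b-5p, miR-30c-5p, miR-30d-5p and miR-30e-5p were detected on all arrays and miR-30e-3p on all but DMSO replicate 3. All 5 were tested. miR-30b-5p, miR-30c-5p, miR-30e-5p and miR-30e-3p were called lower, where 34.6% of all tested miRNAs were called lower, 36% were called higher and 70.6% were called in either direction. Their groups of 4 values did not overlap, which held for 65.4% of the tested miRNAs. miR-30d-5p was not called. The median log2 fold change of the 5 tested members was -0.41, against 0.011 over all tested miRNAs. Fitted alone, the 346 miRNAs detected on all arrays had a median of -0.14, and 139 of them were called lower. Against that median miR-30b-5p was at -0.13, miR-30c-5p at -0.42, miR-30d-5p at 0.22 and miR-30e-5p at -0.27.

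**Figure D1:**
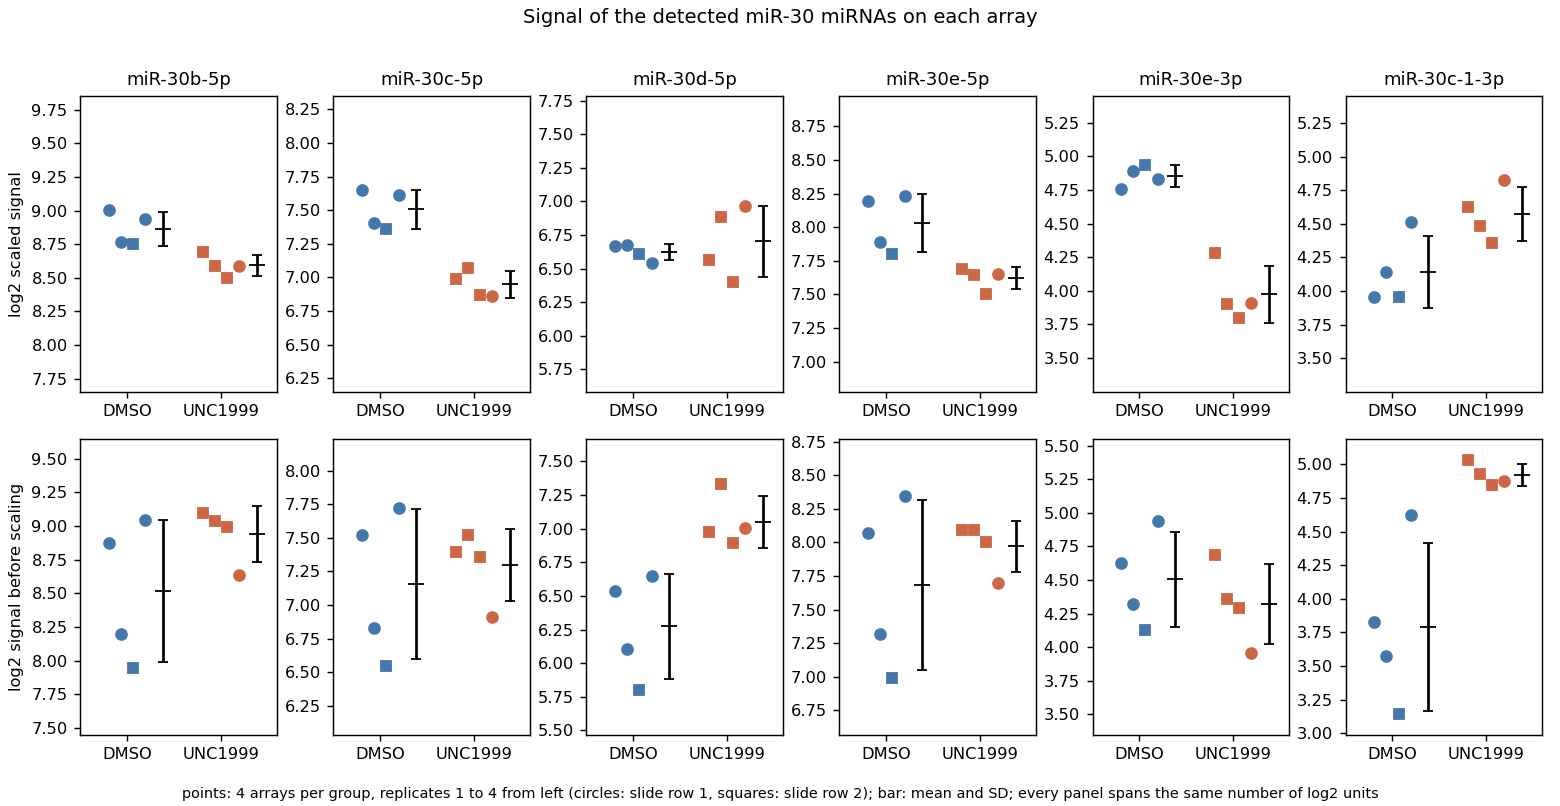
Log2 signal of the detected miR-30 miRNAs on each of the 8 arrays, after scaling in the upper row of panels and before it in the lower row. Points are replicates 1 to 4 from the left, circles and squares mark the first and second array row of the slide, and bars give the mean and SD of 4 arrays. After scaling the DMSO and UNC1999 points of miR-30b-5p, miR-30c-5p, miR-30e-5p and miR-30e-3p do not overlap, and before scaling those of all 4 overlap.

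miR-30c-5p had the largest log2 fold change among the 5p arms. In DMSO replicates 1 to 4 its log2 scaled signal was 7.65, 7.40, 7.36 and 7.61, against 6.99, 7.07, 6.87 and 6.86 in UNC1999 replicates 1 to 4. Every UNC1999 value lay below the lowest DMSO value. The mean fell from 7.51 ± 0.15 to 6.95 ± 0.10 (SD, n = 4 each), a log2 difference of -0.56 with a standard error of 0.11 (limma adjusted p = 0.0015), or 1.47-fold lower. The exact permutation test gave p = 0.0286, the smallest that 4 against 4 arrays allow. Of the tested miRNAs 21.9% had a lower log2 fold change. With each alike pair of arrays counted as 1 sample the same difference had a limma adjusted p of 0.0541.

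miR-30e-5p, which shares the seed and the first 12 bases with miR-30c-5p, was called lower as well. DMSO replicates 1 to 4 read 8.20, 7.89, 7.80 and 8.24 on the log2 scale, and UNC1999 replicates 1 to 4 read 7.69, 7.64, 7.51 and 7.65. The highest UNC1999 value lay just below the lowest DMSO value, and the DMSO values fell into a higher pair, replicates 1 and 4, and a lower pair. The mean fell from 8.03 ± 0.22 to 7.62 ± 0.08 (SD, n = 4 each), a log2 difference of -0.41 with a standard error of 0.12 (limma adjusted p = 0.0121), or 1.33-fold lower (exact permutation p = 0.0286). With the array row of the slide as a block the log2 fold change was -0.32 and the miRNA was not called (limma adjusted p = 0.0664). With the alike pairs counted as 1 sample the adjusted p was 0.132.

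miR-30b-5p had the smallest log2 fold change of the called members. In DMSO replicates 1 to 4 its log2 scaled signal was 9.005, 8.77, 8.75 and 8.93, against 8.69, 8.59, 8.50 and 8.59 in UNC1999 replicates 1 to 4. The groups did not overlap. The mean fell from 8.86 ± 0.12 to 8.59 ± 0.08 (SD, n = 4 each), a log2 difference of -0.27 with a standard error of 0.10 (limma adjusted p = 0.0307, 95% confidence interval -0.49 to -0.05), or 1.21-fold lower. The call was lost when DMSO replicate 1 or 4 or UNC1999 replicate 2, 3 or 4 was left out, with limma adjusted p between 0.0566 and 0.0924, and with the alike pairs counted as 1 sample the adjusted p was 0.268.

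miR-30d-5p, whose gene neighbours that of miR-30b-5p, was not called in either direction. In DMSO replicates 1 to 4 its log2 scaled signal was 6.66, 6.68, 6.61 and 6.54, against 6.57, 6.88, 6.40 and 6.96 in UNC1999 replicates 1 to 4. The DMSO values lay close together, while UNC1999 replicates 2 and 4 lay above all of them, replicate 3 below all and replicate 1 among them. The mean was 6.62 ± 0.06 with DMSO and 6.70 ± 0.26 with UNC1999 (SD, n = 4 each), a log2 difference of 0.08 with a standard error of 0.13 (limma adjusted p = 0.578), with a 95% confidence interval from -0.21 to 0.37. Without UNC1999 replicate 4 it was -0.0055.

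Among the 3 members that are 3p arms, miR-30e-3p alone was detected, at a dim signal. In DMSO replicates 1 to 4 its log2 scaled signal was 4.76, 4.89, 4.94 and 4.83, against 4.28, 3.91, 3.80 and 3.91 in UNC1999 replicates 1 to 4, above the floor of 3.17 on each. All UNC1999 values lay below all DMSO values. The mean fell from 4.85 ± 0.08 to 3.97 ± 0.21 (SD, n = 4 each), a log2 difference of -0.88 with a standard error of 0.12 (limma adjusted p = 2.7e-04), or 1.84-fold lower (exact permutation p = 0.0286), and 7.68% of the tested miRNAs had a lower log2 fold change. The log2 difference of -0.88 is from the sum of 2 probes, and the brighter probe alone gave -0.74. The highest DMSO value, 4.94, came from replicate 3, the array that did not detect the miRNA. miR-30e-3p was the member whose call held with the alike pairs counted as 1 sample (limma adjusted p = 0.0158). It was not called in every processing, with a log2 fold change of -0.35 from the scanner software's sum per miRNA (limma adjusted p = 0.502) and of 0.036 in the authors' processed values, where its standard error was 1.04 (limma adjusted p = 0.978).

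miR-30a-5p, miR-30a-3p and miR-30d-3p were detected on 0 of 8 arrays and were not tested. Their scaled signals, on a linear scale, ran from -5.37 to 3.62 for miR-30a-5p, from -8.36 to -0.173 for miR-30a-3p and from -4.50 to 11.9 for miR-30d-3p, where the lowest signal of a detected miRNA on an array was between 6.21 and 23.1. The scaled signal of miR-30d-3p lay above its array's lowest detected signal on DMSO replicate 4, at 11.9 against 8.62, and on UNC1999 replicate 2, at 8.22 against 7.65, though the scanner software did not mark it as detected there. No fold is given for these 3 members. miR-30a-5p, which was not detected, and miR-30e-5p, which was detected on every array, differ by the substitution U13C alone.

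**Figure D2:**
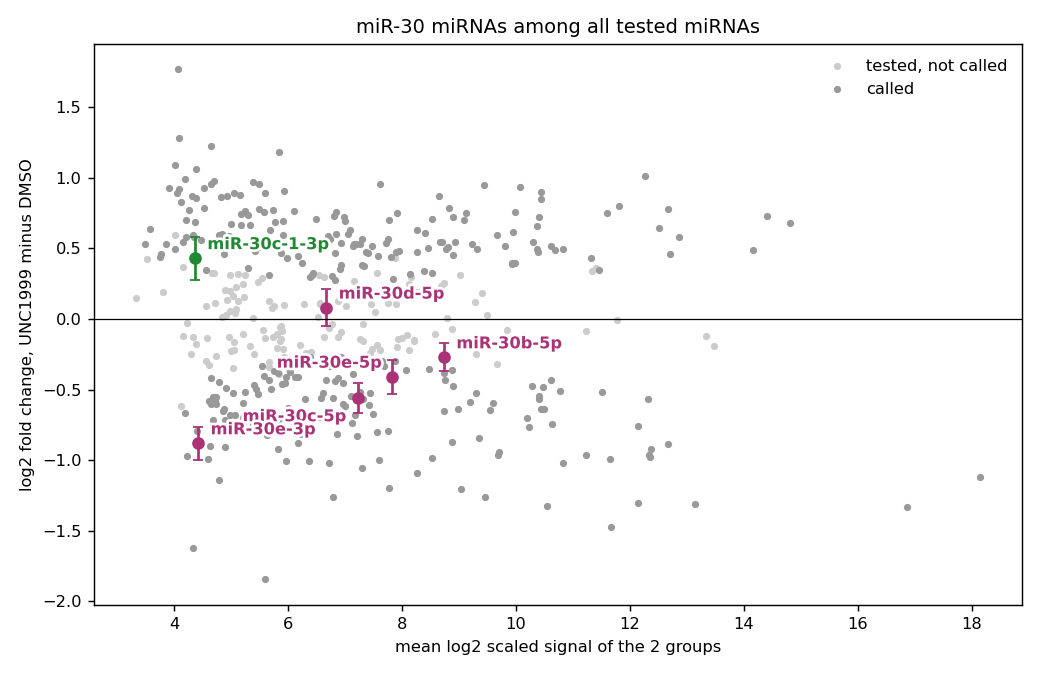
Log2 fold change (UNC1999 minus DMSO) against mean log2 scaled signal for the 456 tested miRNAs in grey, with the 5 tested members in purple, miR-30c-1-3p in green and bars of 1 standard error. miR-30b-5p, miR-30c-5p, miR-30e-5p and miR-30e-3p lie below 0 and miR-30d-5p near it, on this scaling.

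The direction of the 5p members depended on how the arrays were made comparable. Before scaling the signal of miR-30c-5p was 184, 114, 93.7 and 211 on the DMSO arrays and 168, 184, 164 and 120 on the UNC1999 arrays. That of miR-30d-5p was 92.9, 68.9, 55.8 and 100.3 on the DMSO arrays and 126, 161, 119 and 129 on the UNC1999 arrays. The groups overlapped for miR-30c-5p, whereas for miR-30d-5p every UNC1999 array lay above every DMSO array. Without scaling the median tested miRNA rose by 0.67, miR-30d-5p rose by 0.78 (limma adjusted p = 0.0155), and miR-30b-5p, miR-30c-5p and miR-30e-5p were at 0.43, 0.14 and 0.29 on the log2 scale, not called, with miR-30e-3p at -0.18. Scaling to the labelling spike-ins moved the median to 0.78, and miR-30b-5p and miR-30d-5p were then called higher, at 0.54 and 0.90. Without scaling 0.877% of all tested miRNAs were called lower and 51.3% higher, and with the spike-ins 1.54% and 64.7%. No member was called lower in either. With the percentile taken over all human miRNAs, which moved the median to 0.23, miR-30e-3p alone was called lower, at -0.66, as were 19.3% of the tested miRNAs.

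In the authors' processed values miR-30c-5p and miR-30e-5p were called lower, beside 25.7% of the tested miRNAs. With no filter on detection miR-30c-5p and miR-30e-3p were called, beside 4.86% of all human miRNAs, and with the array row as a block the same members, beside 30.5%. With the alike pairs of arrays counted as 1 sample miR-30e-3p was called, beside 18.9%. The first array row of the slide held DMSO replicates 1, 2 and 4 with UNC1999 replicate 4, and the second row held DMSO replicate 3 with UNC1999 replicates 1, 2 and 3. Within the first and second row the log2 difference was -0.31 and -0.16 for miR-30b-5p, -0.69 and -0.38 for miR-30c-5p, 0.34 and 0.0064 for miR-30d-5p, -0.46 and -0.19 for miR-30e-5p and -0.91 and -0.94 for miR-30e-3p, with no test in either row.

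Relative to the median tested miRNA, miR-30c-5p was at -0.57 and miR-30e-5p at -0.42 with the scaling used here. Without scaling they were at -0.53 and -0.39 and with the spike-ins at -0.52 and -0.37. A scaling by 1 factor per array moves a member and the median alike. The likeness of these values is therefore by construction, apart from the floor, and is no support. With quantile normalization miR-30c-5p and miR-30e-5p were at -0.61 and -0.52, and in the authors' processed values at -0.70 and -0.56. With normexp background correction, under which the median was -0.32, they were -0.10 and -0.0022, while miR-30b-5p was above the median at 0.11. The log2 fold changes themselves stayed below 0 there, at -0.43 for miR-30c-5p and -0.32 for miR-30e-5p.

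**Figure D3:**
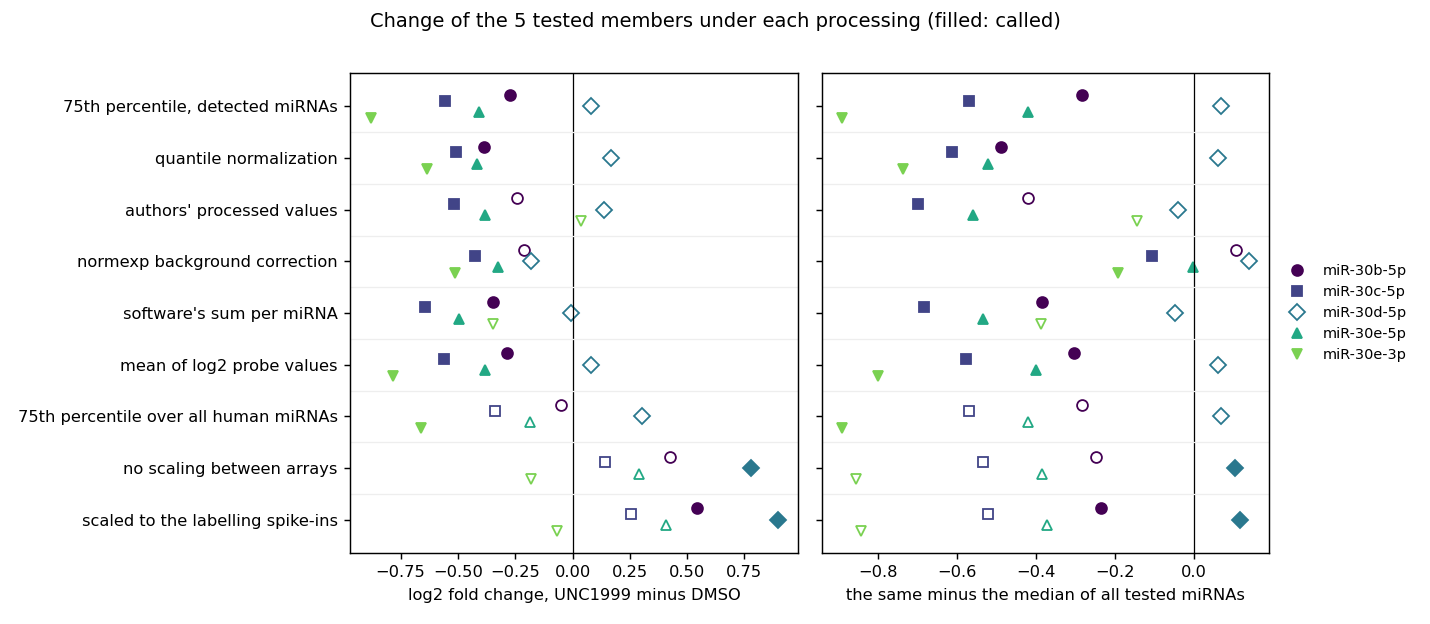
Log2 fold change (UNC1999 minus DMSO) of the 5 tested members under 9 ways of making the signals comparable, on the left as fitted and on the right minus the median of all tested miRNAs, filled where called and open where not. On the left miR-30b-5p, miR-30c-5p and miR-30e-5p lie below 0 in most settings and above 0 without scaling and with scaling to the labelling spike-ins, where that median was 0.67 and 0.78. On the right the settings that differ by 1 factor per array are alike by construction, apart from the floor.

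The probes of each 5p arm had log2 fold changes of one sign. The log2 fold change of miR-30c-5p was -0.56 on both of its probes, that of miR-30d-5p was 0.08 on both, and those of miR-30e-5p were -0.42 and -0.34. The 3 probes of miR-30b-5p gave -0.25, -0.32 and -0.28. On the probes of these 5p arms the median coefficient of variation of the repeated spots was between 4.14% and 17.4%. The brighter probe of miR-30e-3p gave -0.74, with a coefficient of variation of 26.2%. The dimmer one, with 61.5%, was at its floor on all 4 UNC1999 arrays and gives no measured change.

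For signals above the floor, ratios of members within an array do not depend on a scaling by 1 factor per array, and their change shows whether members with the same seed changed by unequal amounts. All 6 pairs of detected 5p arms were compared. The log2 ratio of miR-30c-5p to miR-30d-5p was 0.99, 0.73, 0.75 and 1.07 on the DMSO arrays and 0.42, 0.19, 0.46 and -0.10 on the UNC1999 arrays. The groups did not overlap, and the ratio fell by 0.64 (standard error 0.16), or 1.56-fold (exact permutation test, two-sided, p = 0.0286, 0.0571 after adjustment over the 6 pairs). The ratio of miR-30d-5p to miR-30e-5p was higher by 0.49 and that of miR-30b-5p to miR-30c-5p by 0.29, also with no overlap and with the same p-values from the exact test. The level of such a ratio is not read, since probes differ in brightness. No pair passed 0.05 after adjustment. With the alike pairs averaged and counted as 1 sample, the ratio of miR-30c-5p to miR-30d-5p was 1.03 and 0.74 with DMSO and 0.44 and 0.05 with UNC1999. All 6 ratios then had groups that did not overlap, but 2 against 2 samples cannot reach 0.05, and the exact permutation p was 0.333, the smallest they allow. Of single tested miRNAs 65.4% had groups of arrays that did not overlap. The share over ratios of other miRNAs was not determined, so the counts of ratios without overlap are not read as particular to these members. The exact p of miR-30d-5p to miR-30e-5p was between 0.0571 and 0.0857 without DMSO replicate 1 or 4 or UNC1999 replicate 2 or 4, and with normexp background correction the change was 0.14 (exact permutation p = 0.343). That of miR-30b-5p to miR-30c-5p was 0.0571 without DMSO replicate 1, 2 or 4.

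The other 3 pairs had groups that overlapped. The change was -0.35 for miR-30b-5p to miR-30d-5p, whose genes are neighbours on chromosome 8, and 0.14 for miR-30b-5p to miR-30e-5p (exact permutation p = 0.0857 each), the latter with p = 0.0286 without DMSO replicate 3. It was -0.15 for miR-30c-5p to miR-30e-5p, of which the latter and one source of the former are neighbours on chromosome 1 (exact permutation p = 0.0571). Within the first and second array row miR-30c-5p to miR-30d-5p changed by -1.03 and -0.39, miR-30d-5p to miR-30e-5p by 0.79 and 0.20, and miR-30b-5p to miR-30c-5p by 0.38 and 0.22.

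The arms of the miR-30e hairpin could be compared in the same way. The log2 ratio of miR-30e-5p to miR-30e-3p was 3.44, 3.00, 2.86 and 3.40 on the DMSO arrays and 3.41, 3.74, 3.71 and 3.74 on the UNC1999 arrays. UNC1999 replicate 1 lay among the DMSO values and the other UNC1999 values lay above them. The mean was 3.18 ± 0.29 with DMSO and 3.65 ± 0.16 with UNC1999 (SD, n = 4 each), a difference of 0.47 (exact permutation test, two-sided, p = 0.0571, and 0.0286 without DMSO replicate 1). The difference was -0.15 with the software's sum and -0.42 in the authors' processed values. The arm ratios of miR-30a and miR-30d could not be compared because an arm was not detected.

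**Figure D4:**
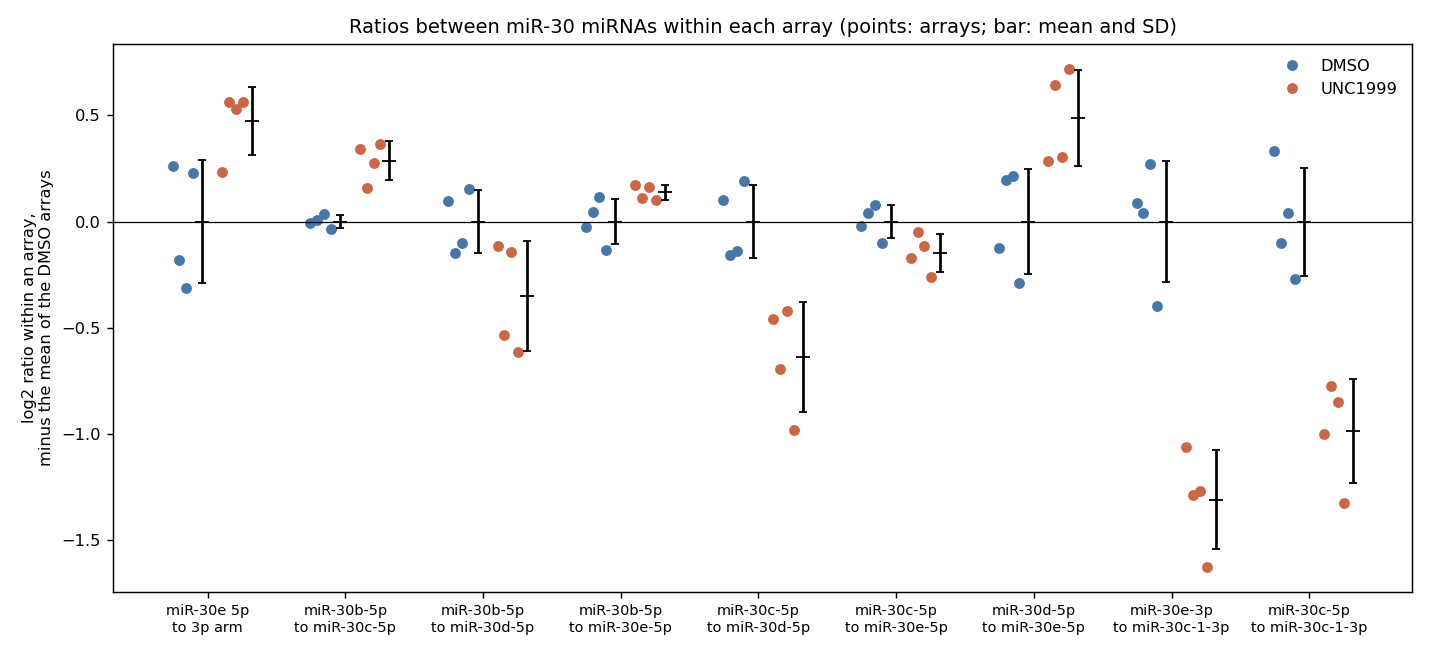
Log2 ratio of miR-30 miRNAs within each array minus the mean of the DMSO arrays, as points for replicates 1 to 4 of each group with mean and SD (n = 4). Among the 5p arms the ratios of miR-30c-5p to miR-30d-5p, miR-30d-5p to miR-30e-5p and miR-30b-5p to miR-30c-5p have groups that do not overlap, and the ratios to miR-30c-1-3p were chosen after their values were seen.

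Of the other 3 mature miR-30 arms on the array, miR-30b-3p and miR-30c-2-3p were detected on 0 of 8 arrays. miR-30c-1-3p, the 3p arm beside one source of miR-30c-5p, was detected on all UNC1999 arrays and on 3 of 4 DMSO arrays. It thus passed the filter only through the UNC1999 group, where its signal was higher, so the filter and the direction of its call are tied. In DMSO replicates 1 to 4 its log2 scaled signal was 3.95, 4.14, 3.95 and 4.52, against 4.63, 4.48, 4.35 and 4.83 in UNC1999 replicates 1 to 4. DMSO replicate 4 overlapped the UNC1999 values. It was called higher, at a log2 difference of 0.43 with a standard error of 0.15 (limma adjusted p = 0.0258), where 36% of the tested miRNAs were called higher, but by exact permutation p was 0.0857. The signal came from 1 of its 4 probes, the call was lost without DMSO replicate 1 or 3 or UNC1999 replicate 1 or 4 (limma adjusted p between 0.0585 and 0.0787), and with the alike pairs counted as 1 sample the adjusted p was 0.0991. It was not called from the software's sum (limma adjusted p = 0.287), the mean of log2 probe values (0.065 on the log2 scale, limma adjusted p = 0.513), the authors' processed values (limma adjusted p = 0.624) or with no filter on detection (limma adjusted p = 0.246). With normexp background correction it was called lower, at -0.43 (limma adjusted p = 0.0180). Within an array its ratios to miR-30e-3p and miR-30c-5p were compared after their values were seen. That of miR-30e-3p to miR-30c-1-3p fell by 1.31 and that of miR-30c-5p to miR-30c-1-3p by 0.99 on the log2 scale, in both with groups that did not overlap. For these as well, the share over ratios of other miRNAs was not determined.

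Other miRNAs that target PRDM1, or share a seed with one that does, were taken as a list of 12, namely miR-9-5p, miR-125a-5p, miR-125b-5p and the let-7 family with miR-98-5p. Of these 9 were tested, and 8 were called lower and 0 higher, where 34.6% of all tested miRNAs were called lower. The study had picked let-7 miRNAs and miR-125b as lower on the same arrays, so their count is not independent evidence. miR-125b-5p fell by 0.999 with a standard error of 0.13 on the log2 scale (limma adjusted p = 2.7e-04), and miR-9-5p had a log2 difference of -0.88 with a standard error of 0.22 (limma adjusted p = 0.0052). The 7 tested let-7 miRNAs ranged from -1.01 for let-7d-5p to -0.13 for let-7b-5p, which was not called (limma adjusted p = 0.273). The median of the 9 was -0.80, against -0.41 for the 5 tested miR-30 members and 0.011 for all tested miRNAs. All 9 were detected on all arrays, and over the 346 miRNAs for which that held the median was -0.14, with 139 called lower. With the alike pairs counted as 1 sample 7 of the 9 were called lower, where 18.9% of all tested miRNAs were, and with the paired test of the statistics section 5, where 19.1% were. Without scaling between arrays 0 of the 9 were called lower. The list leaves out miR-125a-3p and miR-320c, which the paper reports as raised by UNC1999 and predicted to target the BLIMP-1 transcript. With the scaling used here miR-125a-3p was called higher, at 0.30 on the log2 scale (limma adjusted p = 0.0151), where 36% of the tested miRNAs were. No value is given here for miR-320c. The paper also reports lower BLIMP-1 mRNA and protein after UNC1999, and a link to the miRNAs above was not tested.

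The tested miRNAs whose profile over the 8 arrays was most like the mean of the 4 detected 5p arms were miR-425-5p, miR-140-3p, miR-4449, miR-23b-3p and miR-140-5p. The root mean square difference of the centred log2 signals was between 0.0694 and 0.0851, where its median over the tested miRNAs was 0.347. Their log2 fold changes were -0.24, -0.33, -0.33, -0.30 and -0.42, and of these miR-425-5p was not called (limma adjusted p = 0.0873). The profiles include the difference between the groups, so fold changes near those of the 5p arms follow from the selection.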

How the data were processed

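The authors deposited the scanner output of 8 single-colour Agilent miRNA arrays (Feature Extraction 10.7.3.1, miRBase release 21, per the labels and file headers), with a background-subtracted intensity per spot that is not normalized between arrays. Their processed log2 values, made with GeneSpring 13 and also deposited, served as an alternative.

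Here spot intensities were averaged per probe without outlier spots (1392 to 2292 of 53144 per array), probes were summed per miRNA, and each array was scaled so that the 75th percentile of the 346 miRNAs detected on every array equalled 518, its geometric mean over arrays. Values under 8.98, the median over arrays of the lowest detected scaled signal, were raised to it before log2, which understates changes of dim miRNAs. The 456 tested miRNAs were fitted together in R 4.3.3 with limma 3.58.1 (lmFit, eBayes, no block, Benjamini-Hochberg adjustment), and single values were compared by exact permutation of the 8 arrays. The steps were checked on simulated data with independent arrays, so that the check does not cover the likeness of the arrays in pairs. The methods name a moderated test with this fold threshold, and the statistics section a paired test, which was an alternative.

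Alternatives were other scalings, normexp (offset 50, on median spot intensities, the column given), quantile normalization, the software's sum, the mean of log2 probes, other filters, another variance model, the replicate number or array row as a block, and each array left out. Counting alike arrays as a block or as 1 sample was added after seeing the data. The members and lists were chosen with earlier results of these data known. Named miRNAs were the 8 members, the other miR-30 arms, the PRDM1 list, the markers and the 5 most alike profiles. To these miR-125a-3p and miR-320c were added because the paper names them. All arrays lay on 1 slide. The number of arrays limits the precision.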

Additional observations from a re-analysis of the deposited data

Results flagged for a closer look

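The log2 ratio of miR-30e-5p to miR-30e-3p in the UNC1999 group stood out because 1 array lay far from the others. UNC1999 replicate 1 was at 3.41, while the other 3 arrays lay between 3.71 and 3.74. Of 26 groups examined in this way chance alone gives 1.3 such results.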

How the results depend on the processing

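The scaling decided the most. When all human miRNAs set the 75th percentile, when no scaling was done and when the labelling spike-ins set it, 1, 0 and 0 members were called lower, and 0, 1 and 2 higher. The log2 fold changes under these 3 scalings were -0.0503, 0.43 and 0.54 (called) for miR-30b-5p, -0.34, 0.14 and 0.26 for miR-30c-5p, and -0.19, 0.29 and 0.41 for miR-30e-5p. Without scaling and with spike-ins they were 0.78 and 0.90 for miR-30d-5p (both called) and -0.18 and -0.066 for miR-30e-3p. Of the PRDM1 list 5, 0 and 0 were called lower, and 1 higher with spike-ins. The cause of these differences between scalings was not tested.

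Of the other settings, the authors' processed values, no filter on detection and the array row as a block each left 2 members called lower, and alike arrays counted as 1 sample left 1. miR-30b-5p was at -0.21 with normexp, -0.24 in the authors' values, -0.27 with no filter, -0.24 with the row block and -0.27 with alike arrays averaged, called in none of these. With no filter and with alike arrays averaged miR-30e-5p stayed at -0.41, not called, and it was at -0.32 with the row block. miR-30c-5p stayed at -0.56 with alike arrays averaged, not called. miR-30d-5p was at -0.18 with normexp and -0.0060 with the software's sum. miR-30e-3p was at -0.35 with the software's sum and 0.036 in the authors' values, and miR-30c-1-3p at -0.43 with normexp. miRNAs called in all numbered 195 with no filter, 152 with the paired test of the statistics section and 156 with alike arrays averaged, against 322, and the PRDM1 list had 3 lower with no filter and 5 with the paired test. Within the first and second array row miR-30b-5p was at -0.31 and -0.16, miR-30c-5p at -0.69 and -0.38, miR-30d-5p at 0.34 and 0.0064 and miR-30e-5p at -0.46 and -0.19.

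Same-numbered samples did not all deviate together from their group means, with correlations of 0.24, 0.38, -0.46 and -0.46 for replicates 1 to 4. DMSO replicates 1 and 4 correlated positively with UNC1999 replicates 1 and 3 (0.24, 0.54, 0.35 and 0.46). DMSO replicates 2 and 3 did so with UNC1999 replicates 2 and 4 (0.38, 0.15, 0.32 and 0.54). All other correlations between the groups were negative. By these signs the alike arrays went together in sets across the groups, which the numbers follow for replicates 1 and 2 only. Deviations from a group mean cancel within the group, so alike pairs give correlations of both signs. The pattern of signs therefore does not show that the sets were cultured together. With the replicate number as a block 308 miRNAs were called, and miR-30b-5p, at -0.27, was no longer called (limma adjusted p = 0.0674). With the sets of alike arrays as a block 345 were called, 167 of the 456 tested lower. The limma adjusted p was then 0.0136 for miR-30b-5p, 4.4e-04 for miR-30c-5p, 0.0046 for miR-30e-5p and 9.4e-05 for miR-30e-3p, all called lower. That fit counts each array as a separate culture, and its sets were taken from these data.

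With each array left out in turn 292 to 326 of the 456 tested miRNAs were called, 143 to 158 lower and 135 to 173 higher. Called lower were 3 to 4 members and 8 to 8 of the PRDM1 list, and 0 to 0 of either were called higher. The log2 fold changes ran from -0.31 to -0.22 for miR-30b-5p, -0.61 to -0.51 for miR-30c-5p, -0.0055 to 0.18 for miR-30d-5p, -0.48 to -0.34 for miR-30e-5p and -0.98 to -0.82 for miR-30e-3p. Changes of ratios ran from 0.37 to 0.56 for the miR-30e arms, 0.26 to 0.33 for miR-30b-5p to miR-30c-5p, -0.43 to -0.26 for miR-30b-5p to miR-30d-5p, 0.092 to 0.18 for miR-30b-5p to miR-30e-5p, -0.71 to -0.52 for miR-30c-5p to miR-30d-5p, -0.18 to -0.11 for miR-30c-5p to miR-30e-5p and 0.39 to 0.56 for miR-30d-5p to miR-30e-5p.

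Changes of the miR-30e arm ratio were -0.15 with the software's sum, -0.42 in the authors' values and 0.75 within the second array row. That of miR-30b-5p to miR-30c-5p was 0.28 in the authors' values (exact permutation p = 0.0571) and 0.38 within the first row. Within the first row miR-30b-5p to miR-30d-5p changed by -0.65 and miR-30c-5p to miR-30e-5p by -0.23. miR-30b-5p to miR-30e-5p changed by 0.11 with normexp, 0.15 with the software's sum and 0.033 within the second row. miR-30c-5p to miR-30d-5p changed by -1.03 and -0.39 within the rows, and miR-30d-5p to miR-30e-5p by 0.79 and 0.20, and by 0.14 with normexp (exact permutation p = 0.343). With alike arrays averaged the ratio changes of 0.29, -0.64 and 0.49 for miR-30b-5p to miR-30c-5p, miR-30c-5p to miR-30d-5p and miR-30d-5p to miR-30e-5p were the same by construction, with an exact permutation p of 0.333, the smallest that 2 against 2 samples allow.

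miR-30e-3p had no value where detection on all 8 arrays was required. Its signal and that of miR-30c-1-3p lay near the lowest detected signals, which limits what is said of them.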
